A study of Nothobranchius furzeri with 10 samples.

Results

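The genes described here are those whose RNA was higher in every rotenone-treated killifish liver than in every control liver. They number 191 of the 26739 genes in the deposited table. Counts were divided by a size factor for each library, which corrects for depth and also levels the typical gene between libraries. The 100 genes of highest mean normalized count were left out. A gene was kept when its mean over the 10 libraries was at least 200 normalized counts, when the lowest rotenone value lay above the highest DMSO value, and when the rotenone mean was at least 1.5 times the DMSO mean. A ceiling of 300 genes was not reached. The values that chose these genes are the same values described below, so the difference between the groups is a description and carries no test. With 10 libraries and so many genes, some separate the groups whatever was given.

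The livers came from male Nothobranchius furzeri, the turquoise killifish, a fish with a brief life span that serves in research on ageing, of the strain MZM-0410p, aged 27 weeks. Libraries labelled DMSO (5), the solvent, formed the control group, and 5 libraries were labelled rotenone at 15 pM. The labels number the samples without saying that each is a separate fish, and they give neither the route nor the length of treatment. Rotenone is a plant-derived compound that blocks complex I, the entry point of electrons from NADH into the mitochondrial respiratory chain. Hepatocytes, the main cells of the liver, depend on this chain for ATP, and they make most plasma proteins and carry out much of the body's lipid, sugar and drug metabolism.

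The files give gene IDs without names, and none (0) of the 26739 IDs matched the RefSeq table at hand. No pathway, cell type or protein can therefore be read from these genes, the liver identity of the samples was not checked against marker genes, and no sequence is shown. Only 2 genes are given by ID, the member with the largest ratio of means and the member with the highest mean. The others are called by their rank. In whole-liver RNA, more cells of a type and more RNA per cell cannot be told apart.

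Library totals ran from 32775234 to 41902929 counts in DMSO and from 29162530 to 39514232 in rotenone. Scaling by these totals alone, in place of size factors, moved the median log2 ratio of all 10090 genes that met the limits on abundance from 0.01 to −0.19, so directions here are relative to the size factors. Relative to its mean over the libraries, the size factor per count was 1.07 ± 0.124 in DMSO and 0.929 ± 0.124 in rotenone (mean ± SD, n = 5 each). It was lowest in rotenone replicates 4 and 5, at 0.779 and 0.809, and in DMSO replicate 2, at 0.865.

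The separation was mostly modest in size. Of the 10090 genes within the abundance limits, 3.91% had every rotenone value above every DMSO value, and 1.89% also reached the ratio of 1.5. The median member was 1.797 times higher in rotenone, with quartiles of 1.61 and 2.06 and extremes of 1.51 and 19.5. At least a 2-fold ratio was seen for 57 members, at least 3-fold for 14 and at least 4-fold for 6, while 134 lay under 2-fold. The limit of 200 on the mean counted the rotenone values, so a gene low in DMSO could pass it through them. Among the first 10 by ratio, ranks 1, 3, 5 and 10 had DMSO means under that limit, at 27.8, 76.6, 89.7 and 129.9 normalized counts. The upper end of the ratios is therefore partly shaped by the rule. Over all 10090 genes the median ratio was 1.01, with quartiles of 0.842 and 1.20. The mirrored rule, with every rotenone value below every DMSO value and a DMSO mean at least 1.5 times the rotenone mean, found 114 genes (1.13%). At any ratio, 199 genes were lower in rotenone with no overlap.

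**Figure D1:**
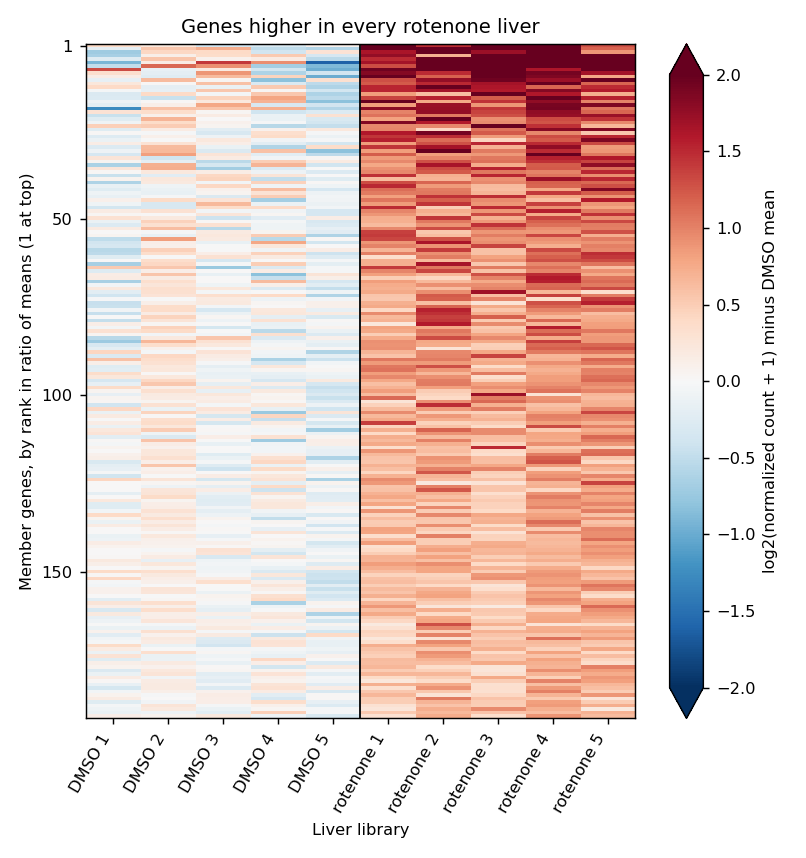
Level of each of the 191 members (rows, ordered by ratio of means) in each of the 10 liver libraries (columns), as log2(normalized count + 1) minus the gene's DMSO mean. Colours end at ±2. All 5 rotenone columns are red throughout, as the rule requires, and among the controls DMSO replicate 2 shows the most pale red.

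The gap between the groups, which cannot exceed the ratio of means, was small for most members. The lowest rotenone value was a median of 1.13 times the highest DMSO value, and it was under 1.1 times for 82 members. It was at least 1.2 times for 52 members and at least 1.5 times for 11. The widest gap, 2.00, belonged to the member ranking 14 by ratio, picked here after its values were seen. Its normalized counts, given here and below in the order of replicates 1 to 5, were 210.7, 191.9, 313.3, 222.0 and 167.5 in DMSO and 625.8, 690.2, 648.1, 772.7 and 648.9 in rotenone. The rotenone libraries lay close together there, the lowest at about 2.00 times the highest control.

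**Figure D2:**
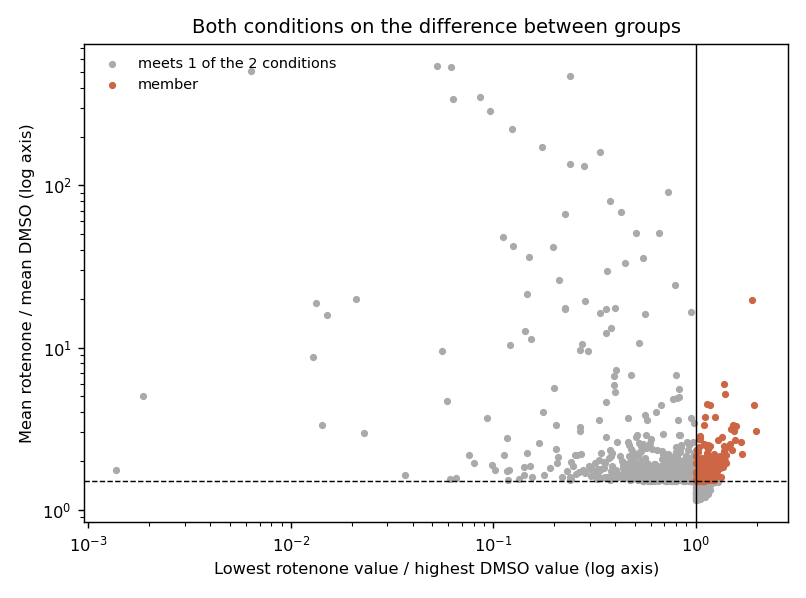
Ratio of means (vertical, log axis) against the lowest rotenone value divided by the highest DMSO value (horizontal, log axis), for genes that met at least 1 of these conditions. Genes without a count in their lowest rotenone library are not drawn, since a log axis cannot show them. The solid line marks no overlap and the dashed line the ratio of 1.5. Members (orange) crowd just right of the solid line, with a median of 1.13, and the genes of largest ratio lie far left of it.

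A ratio of 1.5 was far more common than separation. Within the abundance limits 765 genes had a ratio of at least 1.5, and for 574 of them the groups overlapped. For 281 of these a single library caused the overlap. That library was DMSO replicate 2 for 115 genes, DMSO replicate 4 for 57, rotenone replicate 3 for 50, rotenone replicate 1 for 48 and rotenone replicate 2 for 32. Each of the other 5 libraries did so for 8 to 17 genes. A gene can be counted under more than 1 library.

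Genes just inside and just outside the limits differed little. At the ratio limit the lowest member had 1.506 and the nearest gene outside 1.499. At the limit on overlap the last member had 252.7 normalized counts in its lowest rotenone library and 252.6 in its highest DMSO library, while the nearest gene outside had 467.2 and 467.9. At the limit on abundance the last member had a mean of 200.3 and the nearest gene outside 199.2. A further 122 genes met all conditions except this mean of 200, and 4 genes did so among the 100 most abundant.

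The member with the largest ratio of means was Nfu_g_1_007111, and a single library set both the size of this ratio and its membership. Its DMSO values were 36.1, 31.6, 20.7, 21.8 and 28.8 normalized counts, and its rotenone values were 296.1, 77.5, 2159.1, 113.6 and 68.2. Every rotenone library was above every control, but replicate 3 was far above the rest of its own group. Of the other values only that of rotenone replicate 1 exceeded 200. Without replicate 3 the mean would lie under the limit of 200, and the gene would not be a member. The ratio was 19.5 with all libraries, 5.00 without rotenone replicate 3, and 3.11 without rotenone replicates 1 and 3. The ratio of group medians was 3.94.

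Other genes of very large ratio followed the same library but overlapped between the groups. Of the 58 genes within the abundance limits with a ratio of at least 10, Nfu_g_1_007111 was the only member, and 55 of the other 57 were highest in rotenone replicate 3. In 53 of those 55 the next highest library was rotenone replicate 1. These 55 genes, picked after their values were seen, took 2.83% of all counts in rotenone replicate 3 and 0.166% in rotenone replicate 1. In the other rotenone libraries they took 0.00660 to 0.0167%, and in the DMSO libraries 0.00560 to 0.0126%. The rule largely bars genes of this pattern from the members, since every rotenone library had to lie above every control. For 5 of the 191 members rotenone replicates 1 and 3 were the highest pair of libraries, a share not computed over all genes. Without both libraries 187 members kept a ratio of at least 1.5, and the lowest ratio among all 191 was 1.37. The part of whatever raised these genes in the ratio of Nfu_g_1_007111 was not tested.

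**Figure D3:**
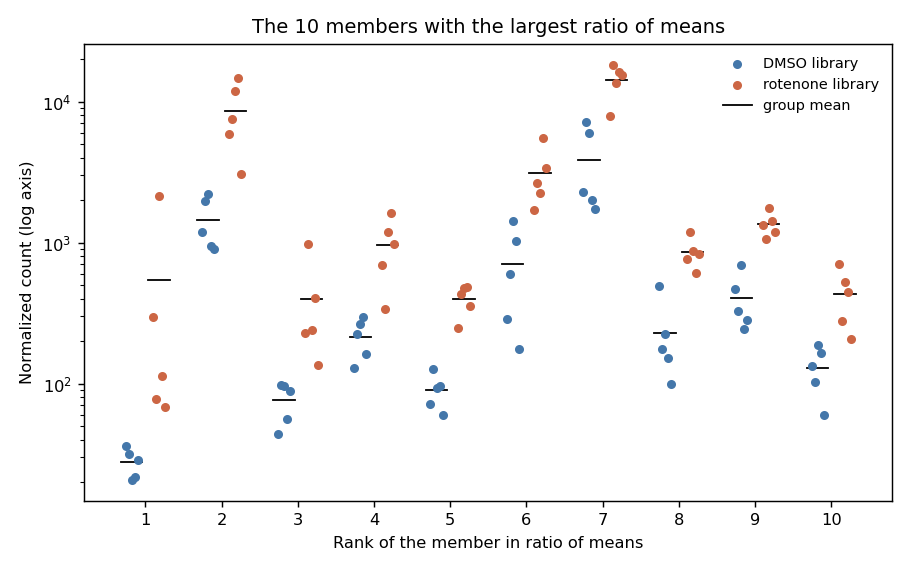
Normalized counts (vertical, log axis) of the 10 members with the largest ratio of means, by rank. Points are single libraries (DMSO blue, rotenone orange), and lines are group means. For rank 1 the rotenone mean lies above 4 of its 5 points, because replicate 3 stands at 2159.1.

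The members ranking 2 to 10 by ratio had rotenone means 3.33 to 5.96 times their DMSO means. The member ranking 2 had DMSO values of 1187.6, 1965.0, 2224.4, 949.2 and 895.8 normalized counts and rotenone values of 5899.5, 7547.9, 11946.5, 14627.8 and 3055.2. Its group means were 1444 ± 611 and 8615 ± 4655 (mean ± SD, n = 5 each), and its rotenone libraries spanned 4.79-fold.

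The member ranking 3 was at 44.2, 97.2, 96.7, 55.7 and 89.1 normalized counts in DMSO and at 228.8, 971.6, 240.2, 406.0 and 135.2 in rotenone. Here rotenone replicate 2 stood high, and without it the ratio fell from 5.18 to 3.30. This member and Nfu_g_1_007111 were the only 2 of the 191 whose ratio moved by more than 1.5 times when any 1 library was left out. The ratio fell under the limit of 1.5 without at least 1 library for 47 members.

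The member ranking 5 separated the groups more evenly than its neighbours in the ranking. It had 72.2, 127.5, 92.6, 96.9 and 59.4 normalized counts in DMSO and 246.7, 429.0, 475.3, 487.8 and 353.8 in rotenone. Its ratio was 4.44 and its lowest rotenone value was 1.93 times its highest control.

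The members ranking 6 and 7 had ratios of 4.42 and 3.75 with gaps of 1.18 and 1.11. Rank 6 was at 285.1, 601.2, 1433.3, 1023.4 and 174.7 normalized counts in DMSO and at 1694.7, 2650.5, 2257.7, 5548.1 and 3397.3 in rotenone. Its controls spanned 8.21-fold, the widest span of any member in DMSO. Rank 7 was at 2269.9, 7136.4, 6015.1, 1998.5 and 1727.7 in DMSO and at 7940.8, 18272.0, 13647.1, 16359.5 and 15501.6 in rotenone. In this gene DMSO replicates 2 and 3 came within reach of rotenone replicate 1, while the other 3 controls lay far lower.

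The member ranking 9 was at 470.8, 326.7, 691.0, 242.1 and 283.6 normalized counts in DMSO and at 1331.3, 1056.6, 1748.7, 1418.1 and 1181.4 in rotenone. Its lowest rotenone value was 1.53 times its highest control. Ranks 4, 8 and 10 had ratios of 4.49, 3.73 and 3.33, with gaps of 1.14, 1.24 and 1.10.

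Of the 10 members of highest mean, 4 had a ratio of at least 2. The member of highest mean, Nfu_g_1_011088, ranked 110 among all genes by mean normalized count and 31 among the members by ratio. It had 23704.2, 39914.3, 20797.8, 38136.3 and 14413.4 normalized counts in DMSO and 45758.4, 107920.0, 52328.3, 72081.6 and 46925.6 in rotenone. DMSO replicates 2 and 4 were close below the lowest rotenone library, and rotenone replicate 2 was the highest. Its ratio was 2.37. Its length implied by the deposited values was 429 bases, and on a scale per length it also ranked first among the members, at 1951 ± 711 RPKM in DMSO and 4109 ± 1885 RPKM in rotenone (mean ± SD, n = 5 each).

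The member ranking 3 by mean was more even. It had 29151.8, 32004.3, 24965.5, 24678.9 and 20643.7 normalized counts in DMSO and 50940.1, 43187.1, 48113.8, 76378.3 and 53474.4 in rotenone, a ratio of 2.07 with a gap of 1.35. The member ranking 7 by mean had a similar ratio, 2.33, and almost no gap, 1.02. Its values were 13288.8, 29559.5, 20136.6, 14540.5 and 11656.6 in DMSO and 38996.4, 30157.7, 30733.4, 73249.7 and 35029.3 in rotenone, so that DMSO replicate 2 nearly reached the rotenone libraries.

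The member ranking 10 by mean was at 8455.7, 9777.9, 15315.9, 13686.6 and 11594.4 normalized counts in DMSO and at 31551.3, 18859.2, 32966.6, 24199.9 and 21890.5 in rotenone. It had the ratio 2.20 and the gap 1.23. The other 6 of the 10 members of highest mean had ratios from 1.51 to 1.73 and gaps from 1.02 to 1.12.

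The member with the smallest spread within groups, picked after its values were seen, had 485.5, 378.9, 397.6, 427.0 and 434.9 normalized counts in DMSO and 681.9, 644.6, 670.8, 698.4 and 695.9 in rotenone. Its rotenone libraries spanned 1.08-fold, the narrowest span of any member. Its ratio was 1.60, which ranked 147 among the 191.

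The controls did not sit equally far from the rotenone livers. DMSO replicate 2 was the highest control for 79 members (41.4%) and DMSO replicate 4 for 52 (27.2%), against 27 each for replicates 1 and 3 and 6 for replicate 5. Over all genes, DMSO replicates 1 to 5 were the highest control for 10.7, 24.6, 12.2, 35.4 and 15.6%. For these shares the abundance limits were applied without the replicate in question. DMSO replicate 4 was thus the highest control less often among the members than over all genes, and DMSO replicate 2 more often. DMSO replicate 5 was the lowest control for 75 members (39.3%), a share not computed over all genes. Measured from the DMSO mean, the median member stood at −0.04, 0.17, 0.01, 0.03 and −0.15 on the log2 scale in DMSO replicates 1 to 5.

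In the rotenone libraries the median member stood at 0.73, 0.86, 0.71, 0.91 and 0.91 for replicates 1 to 5 on the same log2 scale. Rotenone replicates 3 and 1 held the lowest rotenone value for 64 and 58 members (33.5 and 30.4%). Over all genes, rotenone replicates 1 to 5 held it for 20.3, 21.8, 19.3, 20.8 and 19.1%. For these shares too the abundance limits were applied without the replicate in question. Rotenone replicates 4 and 5 held the highest value for 60 and 54 members, shares not computed over all genes. Rotenone replicates 4 and 5 and DMSO replicate 2, which stood high in their groups here, were also the libraries of smallest size factor per count. Over all 10090 genes the same median lay between −0.04 and 0.07 in every library. Size factors level the typical gene between libraries by design, so this narrow range was largely fixed in advance.

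As a share of all counts, with no size factor applied, the 191 members took 1.43, 1.41, 1.59, 1.70 and 1.28% in the DMSO libraries and 2.24, 2.72, 2.37, 2.36 and 2.09% in the rotenone libraries, in the order of the replicates. Every rotenone library was above every control on this scale, which the choice of the members made likely. The highest in each group were rotenone replicate 2 and DMSO replicate 4. Abundant members weigh most in this share, unlike in the median above, so the other order need not come from the scaling alone. Means were 1.48 ± 0.164% in DMSO and 2.36 ± 0.232% in rotenone (SD, n = 5 each).

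To place each library by genes it had not helped to choose, the rule was applied to the other 9 libraries and the left-out library was set on the mean log2 level of the genes found. On this scale 0 is the DMSO mean and 1 the rotenone mean of the other libraries. These ends come from the libraries that chose the genes, which draws a left-out library inward from the end of its own group. A place between the ends therefore need not mean likeness to the other group. The rotenone libraries lay at 0.705, 0.777, 0.705, 0.991 and 0.851 for replicates 1 to 5. DMSO replicates 1, 3 and 5 lay near the other controls, at 0.00645, 0.128 and −0.142. DMSO replicate 4 lay at 0.396, and DMSO replicate 2 at 0.544, past the midpoint. The means were 0.806 ± 0.120 for rotenone and 0.186 ± 0.281 for DMSO (SD, n = 5 each), and the groups did not overlap. The places share libraries and are not independent, so these means carry no test. The order inside the groups depended on the scaling. With library totals in place of size factors, DMSO replicate 2 lay at 0.255, DMSO replicates 3 and 4 at 0.418 and 0.462, and rotenone replicate 5 at 0.495, the lowest of its group, so the groups still did not overlap but came close.

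**Figure D4:**
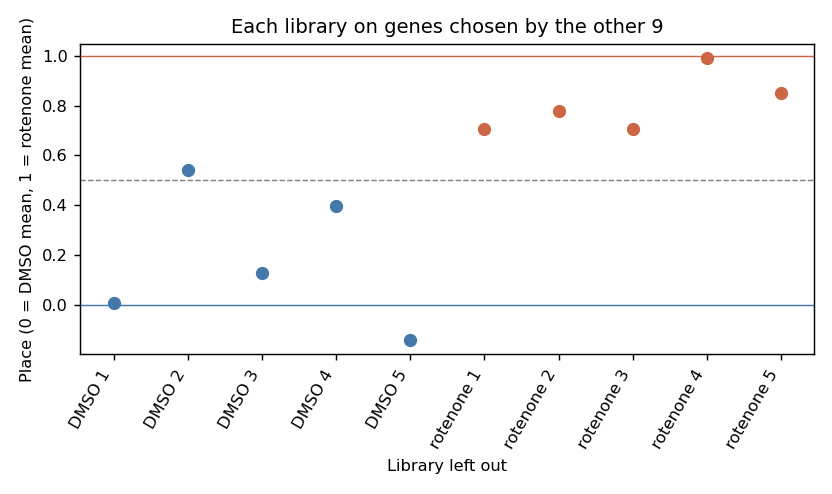
Place of each library (vertical, 0 for the DMSO mean and 1 for the rotenone mean of the other 9 libraries) on genes chosen without it. Points are single libraries, DMSO blue and rotenone orange, and the dashed line is the midpoint. All 5 rotenone libraries lie at 0.705 or above, and DMSO replicate 2, at 0.544, is the only control above the midpoint.

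Gene by gene the left-out libraries followed their groups less fully. Of the genes chosen without them, the rotenone libraries lay above all 5 controls for 73.3 to 87.9%. The share over all genes within the abundance limits was 16.9 to 25.6%. Choosing genes whose other rotenone values lay above the controls itself raises this share. The share over all genes is therefore not the level that no difference between the groups would give. Left-out controls also lay above all 4 other controls for some of the genes chosen without them. In the order of the replicates the shares were 24.8, 72.0, 24.2, 59.3 and 10.1%. Over all genes they were 10.7, 24.6, 12.2, 35.4 and 15.6%, and only DMSO replicate 5 lay below its share over all genes. Choosing genes that are low in the 4 other controls itself raises these shares. They therefore do not show by themselves that a left-out control was high on these genes. DMSO replicate 2 came close to rotenone replicate 3, the lowest of its group at 73.3%. A left-out control lay below all 5 rotenone libraries for 91.0, 52.7, 90.0, 59.3 and 95.2% of the genes chosen without DMSO replicates 1 to 5. The same shares over all genes were 21.2 to 30.4%. Here too the choice of genes raises the share, so the shares over all genes are not the level of no difference. DMSO replicate 2 stood nearer to the rotenone mean than to the DMSO mean for 168 of the 300 genes chosen without it, and DMSO replicate 4 for 143 of 300. For DMSO replicate 5 this held for 8 of 188. The choice of genes draws a left-out library inward in these counts as well.

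Without DMSO replicate 2 the rule found 395 genes before the ceiling of 300, and without DMSO replicate 4 it found 340. Leaving out any of the other 8 libraries gave 188 to 273. Between 156 and 187 of the 191 members were found again among the genes kept, and the lowest figure, without DMSO replicate 2, was limited by the ceiling.

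Variation inside the groups was about that of other genes. The median SD of log2 level was 0.27 in DMSO and 0.28 in rotenone over the members, and 0.30 and 0.27 over all 10090 genes, although a rule that forbids overlap favours a small spread. The SD was larger in rotenone for 96 members (50.3%) and for 42.9% of all genes. At least a 2-fold span between the lowest and highest library was seen for 44 members in DMSO and 38 in rotenone, and at least a 3-fold span for 5 and 8.

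The members varied together inside the groups somewhat more than other genes did. With each group's mean removed, Pearson's r over the 10 libraries had a median of 0.146 over the 18145 pairs of members, against 0.00667 over all pairs of the 10090 genes. An r above 0.5 was seen for 16.8% of member pairs and 13.4% of all pairs, and an r under −0.5 for 4.12% and 11.8%. The pairs share the same libraries and size factors, members were all chosen in 1 direction, and r is given here only as a description.

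**Figure D5:**
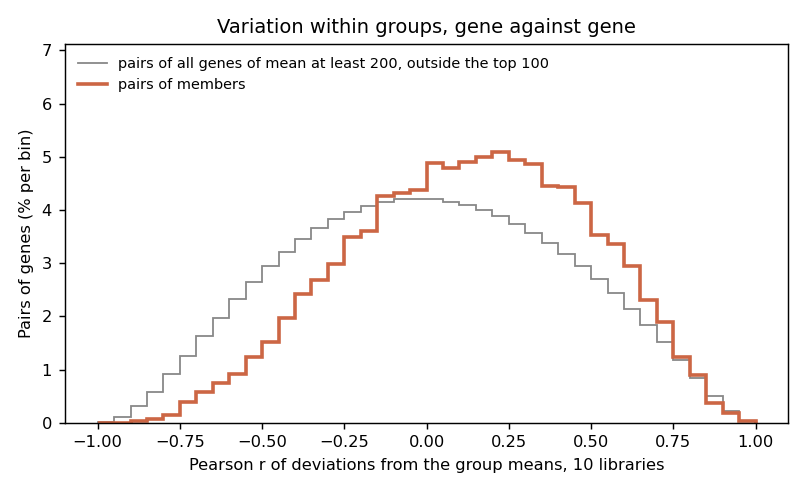
Share of gene pairs (vertical, % per bin) by Pearson's r of their deviations from the group means over 10 libraries (horizontal), for members (orange) and for all genes within the abundance limits (grey). The member curve is shifted to the right, with a median of 0.146 against 0.00667.

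Grouping the members by these deviations (average linkage on 1 − r, ended at a distance of 0.7) gave 12 groups, of which 3 held at least 20 genes. The largest, of 38 genes, was higher in DMSO replicate 2 and rotenone replicate 4, by 0.23 and 0.29 on the log2 scale, and lower in DMSO replicate 5 and rotenone replicate 1, by −0.32 and −0.25 (medians of the deviations). The next, of 37 genes, was higher in DMSO replicate 4 and rotenone replicate 2, by 0.30 and 0.27, and lower in DMSO replicate 1 and rotenone replicate 3, by −0.25 and −0.22. The third, of 32 genes, was steadier among the controls and ran from −0.34 in rotenone replicate 3 to 0.34 in rotenone replicate 5. Median ratios in these groups were 1.78, 1.82 and 1.70, so the ways of varying inside the groups went with similar ratios between them. Their members numbered 107 in all, and the groups were defined from the data and carry no test.

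Averaged over all libraries, the members were somewhat higher in counts than other genes, a measure the rule used, and closer to them per length. Both averages include the rotenone values, which the rule required to be raised. They therefore do not show that the members were the more abundant genes in the controls, where no such comparison was made. Their mean normalized count had a median of 877 and an upper quartile of 2113, against 693 and 1436 over all 10090 genes. The implied length was known for all 191 members, with a median of 3477 bases and quartiles of 1997 and 5392. Over all 10090 genes the median was 3163 bases, with quartiles of 1692 and 5300. On a scale per length, with each library's own total, the members had a median of 7.59 RPKM (quartiles 3.61 and 20.1), against 7.11 RPKM (3.61 and 16.1) over all genes.

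In a fit across all genes, edgeR called 50 of 16922 tested genes higher in rotenone at an adjusted p under 0.05 (0.295%), and 43 of the 191 members were among them. DESeq2 called 813 of 17028 genes higher (4.77%), and 190 members were among them. All 191 members had an unadjusted p under 0.05 in edgeR, where 11.1% of tested genes were higher at that level. Because the rule used the same contrast, nothing is read from these counts. The adjusted p of the members in edgeR ran from 0.0179 to 0.117, with a median of 0.0646. The 43 called members had a median gap of 1.35 and a median ratio of 2.14, and the 148 others 1.09 and 1.70. With single libraries left out, edgeR called from 0 members (without DMSO replicate 5 or rotenone replicate 4) to 141 (without DMSO replicate 2), and in every one of those fits the unadjusted p of all 191 stayed below 0.05, which their choice made likely.

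Membership depended on the scaling. With TMM, another scaling that goes beyond library totals, 176 of the 191 members still met the rule. With library totals as the only scaling, the groups of 86 members stayed apart and 61 met both conditions on the difference. All 191 members had a ratio above 1 under each of these scalings, the lowest being 1.29 with library totals. The median log2 ratio of the members was 0.85 with size factors and 0.64 with library totals, a change of about the shift of all genes given above.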

How the data were processed

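Liver RNA of 10 killifish samples was sequenced with a TruSeq RNA kit, per the labels. Tools named in the submitters' processing notes are STAR 2.4.1d, featureCounts 1.4.6-p4 and bcl2fastq 1.8.4. Genome build, annotation and the use of strand are not stated there, so reads of overlapping genes or of near-identical copies may be mixed. The authors deposited raw read counts per gene and a table of RPKM. The deposited RPKM were scaled by library totals taken in a cycle down the rows. Over 7713 genes, the length computed from counts and RPKM varied between libraries by a median coefficient of 0.153 with own totals and of 3.49e-05 with cycled totals. The deposited RPKM therefore served for gene lengths, and the RPKM values printed were recomputed with own totals.

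DESeq2 1.42.0 gave the size factors. edgeR 4.0.16 in R 4.3.3 (quasi-likelihood, TMM, filterByExpr, Benjamini-Hochberg over all genes) compared rotenone with DMSO. Its p-values rest on the spread between samples that may not all be separate fish. Log2 levels used a pseudocount of 1. The scripts were tested on simulated data. For edgeR, a first run with a larger simulated spread missed the set number of recovered genes, and the spread was then lowered. These runs therefore do not show how well the fit finds changed genes at the spread of these data. Alternatives changed the scaling, the limits of the rule, the tool, the low-count filter and the libraries used. Members and rules were chosen with earlier results of these data known. The rule for named genes took the first 10 by ratio and by mean, by rank where no symbol exists. Replicate numbers follow accession order and pair nothing.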

Additional observations from a re-analysis of the deposited data

Results flagged for a closer look

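Of 46 groups of 5 values checked with Dixon's ratio (critical value 0.71), 2 held a value far from the rest. Chance marks about 1 in 20 groups of unselected values. That rate need not hold for genes picked by rank, since a single very high value raises both the ratio and the mean. For Nfu_g_1_007111, the member ranking 1 by ratio, rotenone replicate 3 stood at 2159.1 normalized counts (Dixon's ratio 0.891). For the member ranking 7 by mean and 32 by ratio, rotenone replicate 4 stood at 73249.7 normalized counts (Dixon's ratio 0.795).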

How the results depend on the processing

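The recomputed RPKM and the joint removal of rotenone replicates 1 and 3 were chosen after the data were seen. The rule found 191 genes. It found 66 with library size only, 349 with the lower of 2 other limits on the ratio, 57 with the higher limit of 2, and 431 without rotenone replicates 1 and 3, and 188 to 395 with a library left out. The median log2 ratio over the members was 0.85, and it was 0.64 with library size only and 0.53 with the deposited RPKM. The deposited RPKM carry the library totals taken in a cycle down the rows, so 0.53 is no fair alternative. RPKM with own totals gave the same 0.64 of necessity, since gene length cancels in a ratio and leaves library size only. edgeR called 50 genes higher, against 10 with library size only, 813 with DESeq2 and 0 to 355 with a library left out. Of the members it called 43, against 7, 190 and 0 to 141. On library size only, the held-out place of DMSO replicates 2 and 3 became 0.255 and 0.418, that of rotenone replicates 4 and 5 became 0.669 and 0.495, and the median SD within groups became 0.301 from 0.281. The cause of these changes was not tested, except that fewer samples, another limit or the cycled totals entered some. The other 113 recomputed values, TMM and the limits on the mean among them, stayed within the spread between libraries or, for counts, within 1.5 times. Depth limits the genes near 200 counts most.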
